A study of Mus musculus with 6 samples.

Results

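The messenger RNA of control bEnd.3 cells was described from 3 libraries, and 10392 of the 15917 genes in the deposited table, 65.3%, had a mean of at least 1 FPKM over them. Genes that reached this mean are called expressed below. FPKM counts fragments relative to the length of the transcript in kilobases and to each 1000000 fragments mapped in a library, so levels of different genes can be set side by side per length. bEnd.3 is a mouse brain endothelial line transformed with the middle T antigen of polyoma virus, and it is used as a cell culture model of the blood-brain barrier. The series holds 2 groups of 3 samples of this line, of which one carries a control short hairpin RNA and the other a hairpin against Npc1, a late endosomal and lysosomal cholesterol transporter gene. The control group was analysed, whose titles read shControl and whose further tag reads WT. All groups are the same transformed line, cells without a hairpin were not analysed here, and no age, treatment or culture condition is given. No label tells if the 3 replicates came from separate cultures, so the spread between them may be technical.

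As a check of the labels, Npc1 was listed at 6.31, 6.63 and 7.27 FPKM in control replicates 1, 2 and 3, and at 0.45, 1.20 and 0.97 FPKM in the other group. No further comparison with that group was made. In bulk RNA, fewer cells of a type and less RNA per cell cannot be told apart, so every level below is that of the culture as a whole. All values are descriptions of 3 libraries and no test was made. The FPKM of a control library summed to between 674525 and 715326, and between 13971 and 14146 genes had a value above 0. Depth is unknown, because the table holds no counts, and no interval or floor is given.

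Brain endothelial cells line the capillaries of the brain and form the blood-brain barrier. They are joined by tight junctions of claudins, occludin and adaptor proteins, carry nutrients across through solute carriers, and return many lipophilic compounds to the blood through ABC transporters. Compared with endothelium of most other organs they take up little material in vesicles, and in the healthy brain they show few adhesion molecules for leukocytes. Wnt signals from neural cells maintain much of this programme in vivo.

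Levels of the expressed genes ran from the threshold of 1 FPKM to 8334 FPKM for Eef1a1. Of the 10392 expressed genes, 3881 (37.3%) lay from 1 to under 10 FPKM, 5499 (52.9%) from 10 to under 100 FPKM, 897 (8.63%) from 100 to under 1000 FPKM and 115 (1.11%) at 1000 FPKM or more. The median was 15.2 FPKM over expressed genes and 5.68 FPKM over the whole table. A further 3574 genes, 22.5% of the table, had a mean under 0.1 FPKM, and 701 of these were listed at 0 in all 3 libraries. Between these classes lay 1951 genes from 0.1 to under 1 FPKM.

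In each of the 3 libraries 10252 of the expressed genes reached 1 FPKM, while 112 reached it in 2 libraries and 28 in 1. Outside the set, 156 genes reached 1 FPKM in at least 1 library. Just inside were Slc9b1 at 0.89, 0.80 and 1.31 FPKM, Tsacc at 0.80, 1.35 and 0.85 FPKM, and Zfhx3 at 1.18, 0.87 and 0.95 FPKM, each with a mean of 1 FPKM. Just outside were Agrn at 1.03, 0.96 and 1 FPKM, Ddit4l at 1.02, 0.91 and 1.06 FPKM, and Rgs17 at 1.12, 0.78 and 1.09 FPKM, each with a mean of 0.997. These neighbours overlapped in every case.

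Genes that every cell needs were listed as present. Of 352 genes in 10 families of core machinery (ribosome, mitochondrial ribosome, proteasome, respiratory complexes, RNA polymerase II, splicing particles, chaperonin and vesicle sorting), 346 reached 1 FPKM. The 6 others were Rpl3l, Rpl6l, Ndufa4l2, Ndufab1-ps, Ndufs6b and Cct6b, which are copies or variants of broadly used genes. These families were chosen after values had been seen, and over all genes the share that reached 1 FPKM was 65.3%. Since every cell needs the core genes and their values were known, their presence says nothing about the genes listed at 0 below. Whether each such 0 is a true absence cannot be tested without counts.

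The 10 most abundant genes made up 8.20% ± 0.179 of the summed FPKM, the 100 most abundant 37.4% ± 0.903 and the 1000 most abundant 71.5% ± 0.849 (SD, n = 3). Genes for cytosolic ribosomal proteins, taken by their Rps, Rpl, Rplp or Rpsa names, made up 27.1% ± 0.773 (SD, n = 3). Of 87 such genes 85 were expressed. They supplied 14 of the 20 most abundant genes, 65 of the top 100 and 68 of the 115 genes at or above 1000 FPKM. Highest of all was Eef1a1, the elongation factor that brings transfer RNAs to the ribosome, at 7989, 8632 and 8379 FPKM in replicates 1, 2 and 3 (mean 8334 ± 324, SD, n = 3). Rps2 and Rpl35, genes of the small and large ribosomal subunit, followed with means of 7103 and 5554 FPKM. The other ribosomal genes of the top 20 included Rps26, Rpl41, Rpl23a, Rps27, Rpl12, Rpl32, Rps21, Rps15, Rps18 and Rpl28.

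Outside these genes the most abundant transcripts encoded a prolyl isomerase, calcium-binding and lectin proteins, iron storage proteins, chaperones and cytoskeleton. Ppia, which encodes cyclophilin A, was at 5136, 5712 and 5542 FPKM. Replicate 2 was the highest and replicate 1 the lowest, as it was for most of the genes plotted. Tpt1, the translationally controlled tumour protein gene, had a mean of 5029 ± 83.1 FPKM and S100a11, a calcium-binding protein gene, one of 4763 ± 219.6 FPKM (SD, n = 3). Gapdh of glycolysis was at 4574 ± 204 FPKM and Lgals1, which encodes galectin-1, at 4175 ± 338 FPKM (SD, n = 3). Next came Hspa8 at 3493 FPKM, the ferritin chains Ftl1 and Fth1 at 2974 and 2866 FPKM, and Vim, the intermediate filament gene of mesenchymal and endothelial cells, at 2860.3 FPKM. Npm1, Hsp90ab1, Actb, Actg1, Tuba1b, Fau, S100a6, Aldoa, Rack1, Procr and Ptma completed the 20, from 2116 down to 1526 FPKM. Fau and Rack1, whose products are also parts of the ribosome, were not counted as ribosomal above because that class was taken by name.

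**Figure D1:**
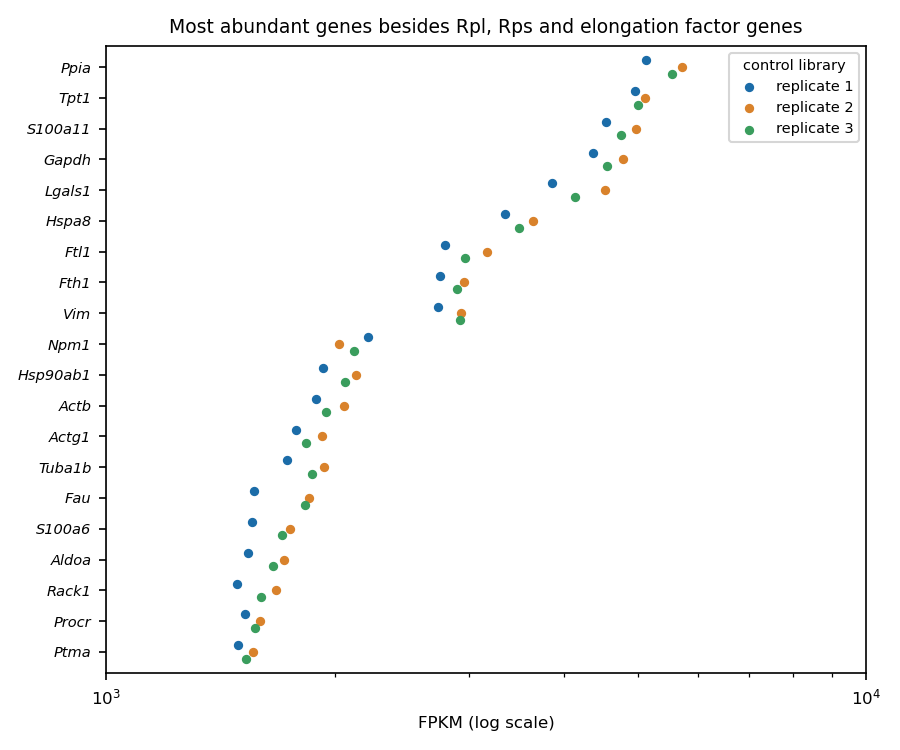
FPKM (log axis) of the 20 most abundant genes after leaving out Rpl, Rps, elongation factor, histone and predicted genes, with 1 point for each of the 3 control libraries. Ppia leads at 5136 to 5712 FPKM, and replicate 1 lies lowest for every gene shown other than Npm1, where it is highest.

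Procr stood out among these as a gene of endothelial function. It encodes the endothelial protein C receptor, which holds protein C on the vessel wall for activation, and it was listed at 1523, 1595 and 1568 FPKM in replicates 1, 2 and 3. Replicate 1 was the lowest and the coefficient of variation, the SD divided by the mean, was 2.32%. The mean of 1562 FPKM above that of Thbd, the thrombomodulin gene that acts beside it, at a ratio of 8.53 ± 0.279 (SD over 3 libraries). Thbd itself was at 183 ± 2.24 FPKM (SD, n = 3).

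Endothelial identity was described with 30 defining genes, all of them in the table, of which 26 were expressed. As for every list in this report, the members were chosen with earlier results of these data known. The shares and medians of lists are therefore descriptions and no test of identity. Their median was 48.9 FPKM, against 5.68 FPKM for all genes, and 65.3% of all genes were expressed. Pecam1, the platelet endothelial adhesion molecule, was at 536, 547 and 555 FPKM. Cdh5, the endothelial cadherin of adherens junctions, was at 165, 158 and 161 FPKM. Both were therefore far above the threshold in each library.

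The secreted factor gene Egfl7 had a mean of 441 ± 7.51 FPKM, the sialomucin gene Emcn 283 ± 19.8 FPKM, the sphingosine-1-phosphate receptor gene S1pr1 247 ± 2.59 FPKM and the nitric oxide synthase gene Nos3 226 ± 7.05 FPKM (SD, n = 3). Of the Tie and VEGF receptor genes, Tie1 was at 97.9 FPKM and Tek at 6.78 FPKM, a ratio of 14.4 ± 0.328 (SD over 3 libraries). Kdr, the main signalling receptor for VEGF, was at 60.3 FPKM and Flt1, which binds VEGF with little signalling, at 12.5 FPKM, a ratio of 4.82 ± 0.199 (SD over 3 libraries). In both pairs the first gene was higher in all 3 libraries.

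The 4 identity genes under the threshold included a classical marker. Vwf, which encodes von Willebrand factor of the endothelial storage granules, was listed at 0.13, 0.15 and 0.17 FPKM. Selp, which encodes P-selectin of the same granules, was at 182, 179.8 and 184 FPKM, and the ratio of Selp to Vwf was 1227 ± 161 (SD over 3 libraries). Mmrn2, a matrix glycoprotein gene of vessels, was at 0.143 FPKM, Cyyr1 at 0.103 FPKM and Aplnr, the apelin receptor gene, at 0.0133 FPKM. All 4 were low in every library.

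Transcription factors of the endothelial lineage were expressed in 24 of the 29 list members in the table, 82.8% against 65.3% of all genes. Their median was 17.2 FPKM. Erg, an ETS factor that maintains endothelial identity, was highest at 97.7, 88.3 and 94.3 FPKM. Klf2, the flow-induced factor, followed at 73.9 FPKM, with Bcl6b at 72.1 FPKM, Hhex at 61.6 FPKM and Ets2 at 60.3 FPKM. Sox7, Fli1 and Tal1, factors of early vessel and blood development, were at 50.2, 39.5 and 34.0 FPKM. Those under the threshold were Etv2, Hey1, Hey2, Meox2 and Prox1, with means from 0.00333 to 0.05 FPKM. A further 10 of the 39 list members, among them Sox17, Foxf2, Foxq1 and Lef1, were not analysed here.

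Genes of the sprouting tip cell held some of the highest levels of the endothelial lists. Of 15 such genes 11 were expressed, 73.3% against 65.3% of all genes, with a median of 10.6 FPKM. Apln, which encodes the secreted peptide apelin, was at 822, 859 and 841 FPKM. Cd34, a sialomucin found on endothelial and blood progenitor cells, was at 684, 708 and 697 FPKM. Replicate 1 was lowest for both, and the coefficients of variation were 2.22% and 1.72%. Esm1, the proteoglycan endocan, was at 423, 384 and 394 FPKM, here with replicate 1 highest. Plaur, the urokinase receptor gene, had a mean of 175 ± 4.51 FPKM and Angpt2, the angiopoietin that destabilises vessels, one of 61.6 ± 2.81 FPKM (SD, n = 3). Apln thus exceeded its receptor gene Aplnr, at 0.02, 0 and 0.02 FPKM, in every library. Below the threshold lay Cxcr4 at 0.847 FPKM, Kcne3 at 0.317 FPKM, Nid2 at 0.00333 FPKM and Igfbp3, listed at 0.

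The promoter windows of the 3 highest tip cell genes are shown because their levels are so much higher than that of most endothelial genes. Each runs from 250 bases before to 50 after a RefSeq gene start in GRCm38.p6, 5′ to 3′ on the gene's strand, at chrX:48034804-48035103 on the minus strand for Apln, chr13:113209409-113209708 on the plus strand for Esm1 and chr1:194938571-194938870 on the plus strand for Cd34. Capitals mark matches, on either strand, to 4 motifs searched by their letters, the TATA box (TATAAA), the CCAAT box (CCAAT), the GC box (GGGCGG) and the ETS core (CCGGAA). Over all 32851 windows of the RefSeq table, which also cover genes outside the deposited table, these were found in 13.6%, 37.4%, 35.7% and 14.9%.
Apln: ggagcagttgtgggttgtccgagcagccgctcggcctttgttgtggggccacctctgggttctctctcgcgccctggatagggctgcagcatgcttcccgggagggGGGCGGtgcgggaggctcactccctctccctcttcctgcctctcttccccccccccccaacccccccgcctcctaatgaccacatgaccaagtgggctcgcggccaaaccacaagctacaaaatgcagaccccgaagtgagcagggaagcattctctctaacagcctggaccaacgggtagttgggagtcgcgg
Esm1: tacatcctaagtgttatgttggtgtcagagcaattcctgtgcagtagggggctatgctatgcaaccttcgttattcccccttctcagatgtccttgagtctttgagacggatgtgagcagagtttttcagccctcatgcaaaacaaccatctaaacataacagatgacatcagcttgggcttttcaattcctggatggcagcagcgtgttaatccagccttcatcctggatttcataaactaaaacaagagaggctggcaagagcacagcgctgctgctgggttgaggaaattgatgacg
Cd34: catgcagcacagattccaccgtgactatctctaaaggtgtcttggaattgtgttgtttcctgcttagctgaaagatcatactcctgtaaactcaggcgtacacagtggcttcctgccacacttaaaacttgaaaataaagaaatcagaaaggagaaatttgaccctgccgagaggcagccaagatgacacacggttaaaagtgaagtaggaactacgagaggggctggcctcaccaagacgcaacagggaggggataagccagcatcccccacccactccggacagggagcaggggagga
The window of Apln held 1 GC box, whose first base lies at position -144 from the start, and those of Esm1 and Cd34 held none of the 4 motifs. GC content was 64.0% in the window of Apln, 46.3% in that of Esm1 and 50% in that of Cd34, against a median of 52.7% over all windows. A match of letters is no evidence of binding, and no match says only that these letters are not in the window.

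Among 14 arterial genes with values, 6 were expressed, 42.9% against 65.3% of all genes, with a median of 0.483 FPKM, led by Edn1, the endothelin-1 gene, at 46.0 ± 3.08 FPKM, and Efnb2, the arterial ephrin gene, at 19.6 ± 0.924 FPKM (SD, n = 3). The Notch target genes Hey1 and Hey2, with Bmx, Alpl, Mgp, Fbln5 and Sema3g, lay at or under 0.12 FPKM. Of 11 venous genes 7 were expressed, 63.6%, a share near that of all genes, with a median of 2.72 FPKM. After Selp the highest were Ephb4, the venous receptor for ephrin-B2, at 34.5 FPKM, and Nr2f2, the venous transcription factor gene, at 19.7 FPKM. Lymphatic genes were expressed in 2 of 7 cases, 28.6%, namely Flt4 at 9.91 FPKM and Lyve1 at 8.08 FPKM. Prox1, which specifies lymphatic endothelium, was listed at 0, 0 and 0.01 FPKM, and Pdpn at 0.737 FPKM. Not analysed here were 6 of 20 arterial genes, among them Gja4, Gja5 and Sox17, 2 of 13 venous and 3 of 10 lymphatic genes.

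Markers of other cell types were low with few exceptions. No pericyte marker of 7 and no fibroblast marker of 7 reached 1 FPKM, and the summed level of the pericyte markers was 0.98 to 1.35 FPKM in a library. Pdgfrb was at 0.61 FPKM, Pdgfra at 0.89 FPKM and Dcn, Col1a1 and Thy1 were listed at 0. Smooth muscle markers were expressed in 2 of 7 cases, 28.6% against 65.3% of all genes. These were Smtn at 43.4 FPKM and Acta2 at 1.44 FPKM, whereas Myh11 was at 0.0167 FPKM. The lists for astrocytes, microglia, neurons, oligodendrocytes and epithelium each had 1 expressed member, and those for lymphocytes and red cells had none. Not all markers could be read: 5 of 12 for microglia (among them Cx3cr1, P2ry12 and Aif1), 4 of 8 for lymphocytes, 4 of 8 for oligodendrocytes, 4 of 11 for neurons, 3 of 10 for pericytes, 3 of 6 for red cells and 2 of 8 for astrocytes were not analysed here.

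The expressed members were Aldh1l1, a folate enzyme gene used as an astrocyte marker, at 1.10 FPKM, Cd68, a lysosomal membrane glycoprotein gene, at 109.6 FPKM, Nefl, the light neurofilament gene, at 82.8 FPKM, Cnp, a myelin enzyme gene, at 5.38 FPKM, and Krt19 at 1.91 FPKM. The other markers of those cells stayed below the threshold. For microglia, Ptprc was at 0.01 FPKM, Csf1r at 0.0233 FPKM and Tyrobp was listed at 0. For neurons, the next highest marker after Nefl was Slc17a7 at 0.0967 FPKM.

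**Figure D2:**
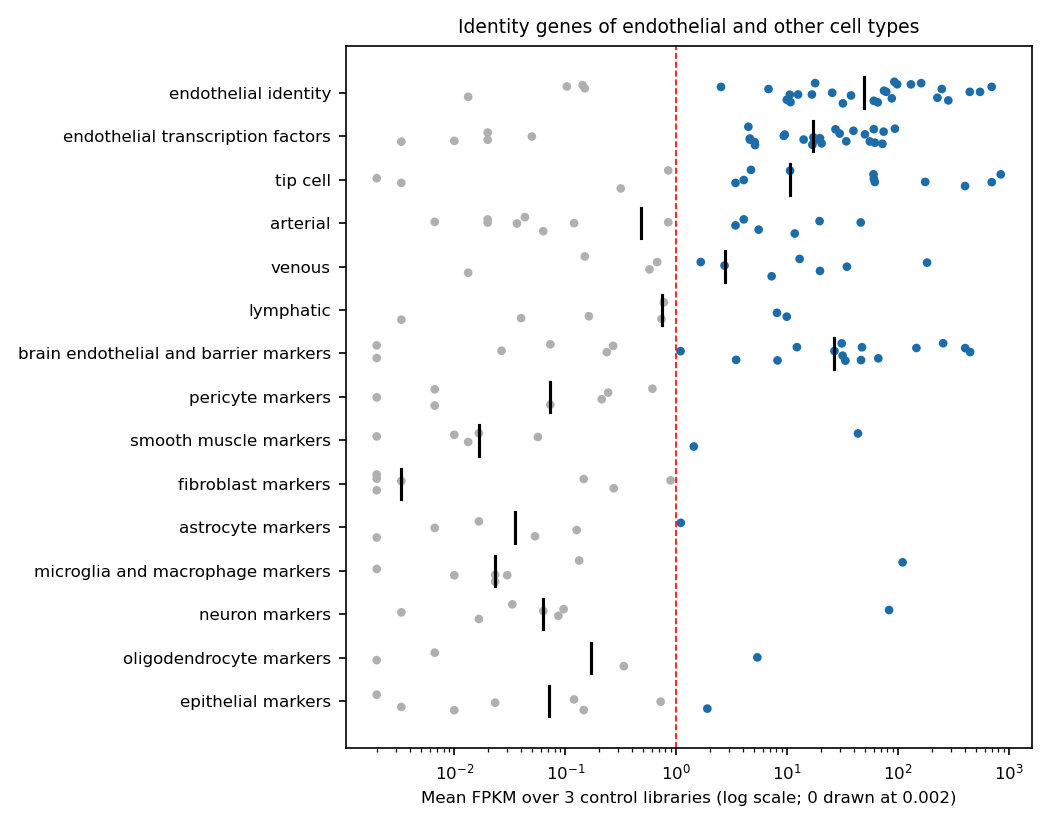
Mean FPKM over the 3 control libraries (log axis, 0 drawn at 0.002) of each gene in the lists for endothelial identity, vessel subtypes and other cell types. Blue points are expressed genes, grey points lie under the dashed line at 1 FPKM, and black bars are list medians: 48.9 FPKM for endothelial identity and under 1 FPKM for arterial, lymphatic and all other cell type lists.

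Genes that mark brain endothelium were mixed. Among the 21 list members with values, 15 were expressed, 71.4% against 65.3% of all genes, with a median of 26.6 FPKM. Ly6a and Ly6c1, surface antigen genes of mouse brain endothelium, were at 445 ± 20.8 and 146 ± 7.56 FPKM (SD, n = 3). They belong to a family of similar copies whose reads may be split between members. Bsg, the immunoglobulin-family partner of lactate carriers, was at 389, 417 and 399 FPKM. Cxcl12, a chemokine gene, had a mean of 254 ± 1.83 FPKM (SD, n = 3).

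The genes under the threshold were Ocln, Abcb1a, Spock2, Pltp, Mfsd2a and Cldn5. Cldn5, the main claudin of the blood-brain barrier, and Mfsd2a, a lysolipid carrier that limits vesicle transport there, were listed at 0 in all 3 libraries. Ocln, the occludin gene, was at 0.18, 0.26 and 0.37 FPKM. The 11 members not analysed here included Slco1a4, Slco1c1, Slc22a8, Foxf2, Foxq1 and Lef1. Both promoter windows are shown for these genes listed at 0, in the same build and with the same motifs in capitals, at chr16:18776597-18776896 on the plus strand for Cldn5 and chr4:122961139-122961438 on the minus strand for Mfsd2a.
Cldn5: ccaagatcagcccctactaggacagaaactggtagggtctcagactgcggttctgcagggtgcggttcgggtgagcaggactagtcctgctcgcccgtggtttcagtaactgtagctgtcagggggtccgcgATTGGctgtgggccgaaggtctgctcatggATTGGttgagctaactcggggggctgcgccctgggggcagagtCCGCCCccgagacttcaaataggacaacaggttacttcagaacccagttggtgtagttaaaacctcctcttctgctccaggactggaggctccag
Mfsd2a: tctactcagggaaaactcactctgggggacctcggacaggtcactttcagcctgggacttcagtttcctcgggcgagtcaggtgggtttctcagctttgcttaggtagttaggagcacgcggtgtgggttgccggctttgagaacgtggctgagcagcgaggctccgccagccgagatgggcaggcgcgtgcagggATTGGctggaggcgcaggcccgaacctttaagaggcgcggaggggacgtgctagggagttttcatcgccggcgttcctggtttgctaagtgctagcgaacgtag
The window of Cldn5 held 2 CCAAT boxes and 1 GC box, and that of Mfsd2a 1 CCAAT box, each on the opposite strand. GC content was 58.3% for Cldn5 and 60.3% for Mfsd2a.

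Junctional genes divided by type. Among 37 genes for tight and adherens junctions with values, 24 were expressed, 64.9% against 65.3% of all genes, with a median of 10.7 FPKM. The catenins of adherens junctions were high, Ctnnb1 at 211, 207 and 207 FPKM and Ctnna1 at 136 ± 2.24 FPKM (SD, n = 3). Esam, an endothelial adhesion molecule gene, was at 130.3 FPKM, Cgnl1, which encodes paracingulin, at 100.5 FPKM and F11r, the gene of junctional adhesion molecule A, at 89.1 FPKM. The adaptor gene Tjp1, which encodes ZO-1, was at 40.7, 34.4 and 37.6 FPKM, lowest in replicate 2.

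Among claudins, Cldn12 stood nearly alone. It was at 40.2, 39.0 and 39.8 FPKM and held 96.4% ± 1.28 of the summed FPKM of the 11 claudins in the table (SD, n = 3). Cldn15, the only other one expressed, was at 0.69, 1.24 and 1.09 FPKM, under the threshold in replicate 1. The tight junction genes Cgn, Marveld2, Marveld3, Lsr, Ildr2 and Jam2 were all under the threshold. Cldn1, Cldn2, Cldn7, Cldn10, Cldn11, Cldn14 and Tjp3 were not analysed here. Among connexins, which form gap junctions, Gja1 was at 65.6 ± 1.97 FPKM and held 86.0% ± 0.623 of the summed FPKM of 8 (SD, n = 3), with Gjc1 next at 9.97 FPKM.

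Solute carriers of the barrier were expressed in 31 of 46 members in the table, 67.4% against 65.3% of all genes, with a median of 7.72 FPKM. The highest was Slc38a2, a sodium-coupled neutral amino acid carrier gene, at 168, 154 and 164 FPKM. Slc3a2, the heavy chain of large amino acid exchangers, was at 111, 120.2 and 114 FPKM, while its light chain Slc7a5 was at 26.6 FPKM, a ratio of 4.33 ± 0.0868 (SD over 3 libraries). Slc2a1, the glucose carrier of the barrier, was at 64.4, 66.6 and 67.5 FPKM and held 88.4% ± 0.133 of the summed FPKM of 9 facilitated glucose carriers (SD, n = 3). Slc1a5, a glutamine carrier gene, was at 61.5 FPKM and Slc16a1, a lactate and ketone body carrier gene, at 46.3 FPKM. Slc16a1 held 64.9% ± 0.642 of the summed FPKM of 14 monocarboxylate carriers (SD, n = 3).

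Carriers known from the barrier that lay under the threshold included Slco2b1 at 0.10 FPKM, Slc40a1, the iron exporter ferroportin, at 0.107 FPKM and Slc38a3 at 0.0267 FPKM. The glutamate carrier genes Slc1a1, Slc1a2 and Slc1a3 were at 0.00667, 0.0167 and 0 FPKM. The highest value of these named genes in any library was 0.15 FPKM, for Slco2b1.

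Among 22 ABC transporter genes with values, 16 were expressed, 72.7% against 65.3% of all genes, with a median of 5.78 FPKM. Abcg2, the breast cancer resistance protein of the barrier, was highest at 32.7, 30.8 and 31.1 FPKM. Abcd3, a peroxisomal transporter gene, was at 30.7 FPKM, Abcb1b at 30.2 FPKM, Abcc1 at 22.9 FPKM and Abcb8 at 19.1 FPKM. P-glycoprotein is encoded by a pair of mouse genes, of which Abcb1a is the one usually reported in brain capillaries. Abcb1b was at 31.9, 29.5 and 29.2 FPKM and Abcb1a at 0.24, 0.25 and 0.22 FPKM. The ratio of Abcb1b to Abcb1a was 128 ± 8.54 (SD over 3 libraries), although reads of such similar genes may be assigned between them in a way the sources used here do not state.

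The windows of this pair are shown because neighbouring copies differ so widely in level. They lie at chr5:8797897-8798196 for Abcb1b and chr5:8566841-8567140 for Abcb1a, both on the plus strand of GRCm38.p6, with the same motifs in capitals.
Abcb1b: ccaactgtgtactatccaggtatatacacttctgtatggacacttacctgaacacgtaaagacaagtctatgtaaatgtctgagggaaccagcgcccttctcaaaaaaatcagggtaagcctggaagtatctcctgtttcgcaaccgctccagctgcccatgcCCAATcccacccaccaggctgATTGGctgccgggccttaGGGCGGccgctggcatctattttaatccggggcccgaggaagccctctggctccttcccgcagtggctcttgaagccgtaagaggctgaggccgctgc
Abcb1a: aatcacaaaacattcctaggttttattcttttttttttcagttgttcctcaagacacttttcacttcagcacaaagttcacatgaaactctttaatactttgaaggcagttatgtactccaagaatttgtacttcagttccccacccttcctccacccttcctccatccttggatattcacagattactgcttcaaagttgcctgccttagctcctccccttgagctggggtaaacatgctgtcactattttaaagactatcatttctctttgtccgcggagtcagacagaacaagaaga
The window of Abcb1b held 2 CCAAT boxes and 1 GC box, and that of Abcb1a none of the 4 motifs. GC content was 55.0% in the window of Abcb1b and 40.3% in that of Abcb1a.

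Of 23 receptor genes of transcytosis 15 were expressed, 65.2% against 65.3% of all genes, with a median of 8.74 FPKM. Cd63, a tetraspanin of late endosomes and exosomes, was at 1038, 1146 and 1127 FPKM. Tfrc, the transferrin receptor gene, was at 35.9, 30.8 and 33.5 FPKM. The lipoprotein receptor genes Lrp8 and Lrp1 were at 17.3 and 8.74 FPKM, while Fcgrt, the neonatal Fc receptor gene, was at 0.31 FPKM and Vldlr and Cd36 at 0.00667 and 0.0233 FPKM.

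Caveolar genes had the highest median of the transport lists, at 85.9 FPKM, with 13 of 14 expressed, 92.9% against 65.3% of all genes. Cav1, the structural protein of caveolae, was at 399, 394 and 394 FPKM. Cavin3 was at 237 ± 16.7 FPKM and Cavin1 at 125 ± 9.48 FPKM (SD, n = 3). Plvap, which forms the diaphragms of fenestrae and caveolae and is low in mature brain capillaries in vivo, was at 205.9, 217.2 and 211.5 FPKM. Its 3 values exceeded those of Slc2a1 and Abcg2 in every library.

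**Figure D3:**
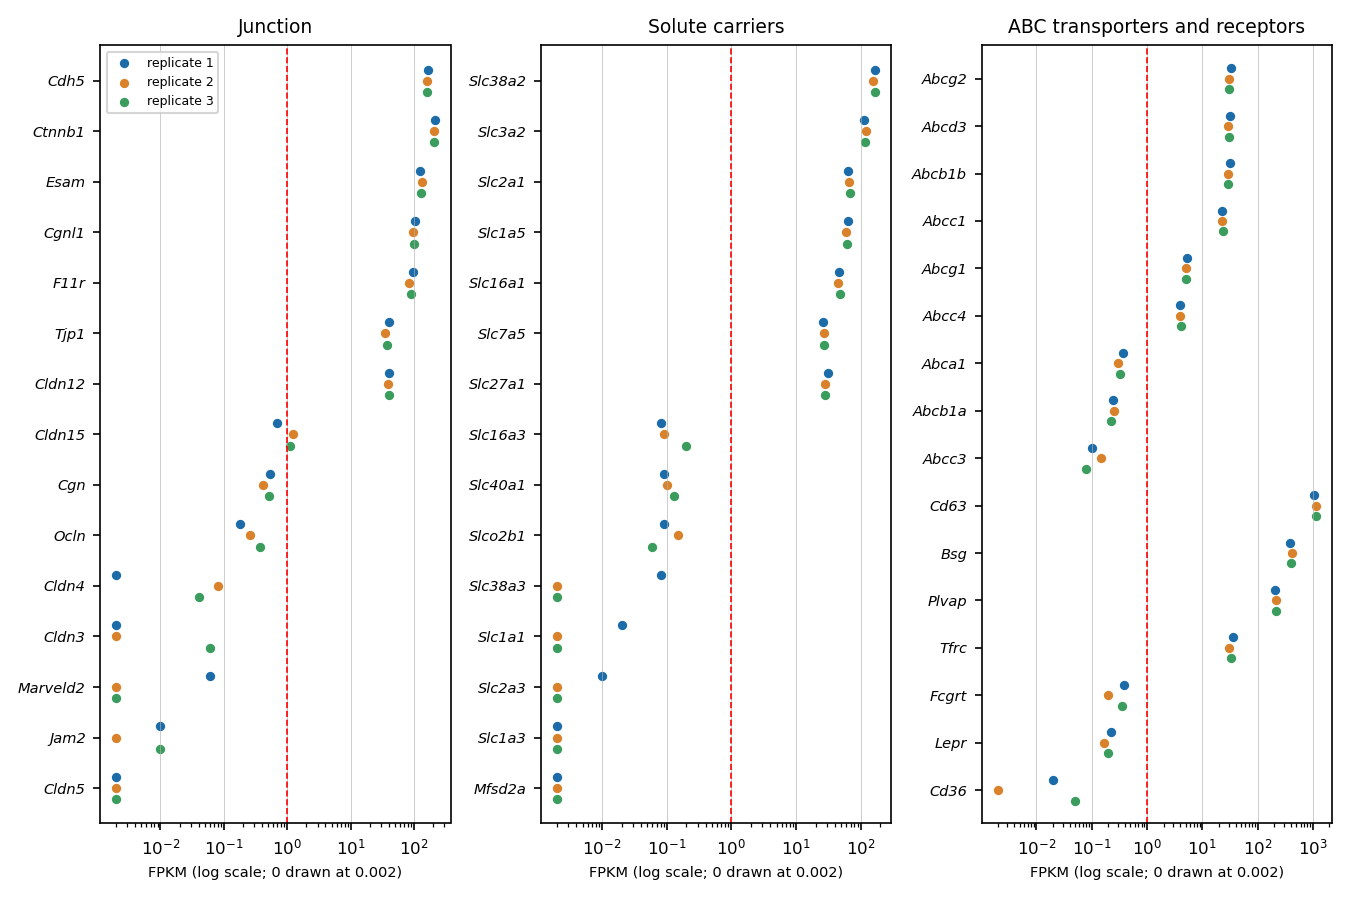
FPKM (log axis, 0 drawn at 0.002) of selected junction, solute carrier, ABC transporter and receptor genes, with 1 point for each of the 3 control libraries and a dashed line at 1 FPKM. Cldn12 is at 39.0 to 40.2 FPKM while Cldn5 is listed at 0, and Abcb1b at 29.2 to 31.9 FPKM while Abcb1a is at 0.22 to 0.25 FPKM.

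Among 25 Wnt pathway genes with values, 16 were expressed, 64% against 65.3% of all genes, with a median of 2.77 FPKM. Besides Ctnnb1 the highest were the co-receptor gene Lrp5 at 36.6 FPKM, Axin1 at 25.3 FPKM and Adgra2, the receptor that works with Reck in brain vessel Wnt signalling, at 22.7 FPKM. Fzd4, the frizzled receptor of retinal and brain vessels, was at 6.83 ± 0.467 FPKM (SD, n = 3). The pathway target gene Axin2 was at 0.133 FPKM and the transcription factor gene Tcf7 at 0.00667 FPKM. Tspan12, the Fzd4 partner, was at 0.69, 0.91 and 0.52 FPKM, and Lef1, Ndp and Nkd1 were not analysed here.

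In the Notch list 13 of 18 were expressed, 72.2% against 65.3% of all genes. Nrarp, a feedback gene, was at 69.9 FPKM and Rbpj, the DNA-binding partner of the cleaved receptor, at 69.1 FPKM. Notch1 was at 18.4 FPKM and held 55.8% ± 0.354 of the summed FPKM of 4 receptor genes (SD, n = 3), Notch4 was at 12.4 FPKM and the ligand gene Dll4 at 4.06 FPKM. TGF-beta and BMP genes were expressed in 23 of 26 cases, 88.5% against 65.3% of all genes, with a median of 10.7 FPKM. Id1, a target gene of BMP signals, was at 221, 233 and 219 FPKM and Bmp4, a ligand gene, at 223, 201 and 211 FPKM. Acvr2b at 0.573 FPKM, Bmpr1a at 0.00333 FPKM and Bmp6, listed at 0, were those under the threshold.

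Among 33 vasoactive and haemostasis genes with values, 24 were expressed, 72.7% against 65.3% of all genes. The median was 14.4 FPKM, and 8 of them reached 100 FPKM. Besides Procr, Anxa2 and S100a10, whose products form a surface complex that binds plasminogen activator, were at 1519.6 ± 97.3 and 1173 ± 97.0 FPKM (SD, n = 3). Plau, the urokinase gene, was at 513, 501 and 509 FPKM. Its ratio to Plat, the tissue plasminogen activator gene, was 17.3 ± 0.667 (SD over 3 libraries). F3, tissue factor, was at 2.14 FPKM, and Ace, Nos2 and Ednrb were under 1 FPKM.

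Matrix genes were expressed in 28 of 46 cases, 60.9% against 65.3% of all genes, with a median of 6.17 FPKM. They were led by Sparc, a collagen-binding glycoprotein gene, at 575 ± 17.2 FPKM and Thbs1, thrombospondin 1, at 459.7 ± 17.3 FPKM (SD, n = 3). Col4a1 and Col4a2, the collagen chains of basement membranes, were at 209.5 and 129 FPKM, a ratio of 1.63 ± 0.0179 (SD over 3 libraries). Of the laminin alpha chains Lama5 was at 19.4 FPKM and Lama4 at 17.3 FPKM, and Lama1, Lama2 and Lama3 were under the threshold. Among integrins 10 of 21 were expressed, 47.6% against 65.3% of all genes. Itgb1 was at 209 FPKM and held 90.4% ± 0.526 of the summed FPKM of 7 beta chains, and the alpha chain genes Itga3 and Itga5 were at 138 and 113 FPKM.

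Immune genes fell into groups of very different level. Chemokines and cytokines were expressed in 12 of 34 members in the table, 35.3% against 65.3% of all genes, with a median of 0.278 FPKM. Mif, the macrophage migration inhibitory factor gene, was at 1119, 1311 and 1192 FPKM. Ccl5 was at 73.6, 78.0 and 82.9 FPKM, Csf1 at 66.1 ± 0.490 FPKM and Ccl2 at 30.3 ± 3.36 FPKM (SD, n = 3). Il6 was at 0.26, 0.21 and 0.27 FPKM, while Tnf, Ccl3 and Cxcl16 were listed at 0.

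Genes of the leukocyte adhesion list were expressed in 18 of 20 cases, 90% against 65.3% of all genes, with a median of 49.0 FPKM. After Pecam1 and Selp the highest were Cd44, a hyaluronan receptor gene, at 173 FPKM, Cd151 at 124 FPKM and Cd9 at 91.7 FPKM. Vcam1, which binds lymphocyte and monocyte integrins, was at 42.3, 38.3 and 41.4 FPKM. Sele, the E-selectin gene, was at 21.8, 20.5 and 21.4 FPKM, and the ratio of Selp to Sele was 8.59 ± 0.212 (SD over 3 libraries). Icam1 was low by comparison at 2.17, 2.67 and 2.99 FPKM, whereas Icam2 was at 78.0 ± 3.08 FPKM (SD, n = 3).

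Receptors of innate immunity were expressed in 31 of 44 members in the table, 70.5% against 65.3% of all genes. The highest were cytokine receptor genes, Tnfrsf1a at 69.2 FPKM, Ltbr at 45.5 FPKM, Ifngr2 at 35.3 FPKM and Il6st at 34.8 FPKM. Tlr4, the lipopolysaccharide receptor gene, was at 26.7, 22.2 and 22.8 FPKM and held 55.9% ± 2.31 of the summed FPKM of 9 Toll-like receptors (SD, n = 3). Its partner Ly96 was at 15.9, 11.3 and 15.9 FPKM, lower in replicate 2, while the co-receptor gene Cd14 was at 0.0267 FPKM.

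Of 20 class I and processing genes 18 were expressed, 90% against 65.3% of all genes, with a median of 18.1 FPKM. B2m, the light chain of class I molecules, was at 935, 946 and 953 FPKM. H2-D1 was at 164 ± 5.91 FPKM and H2-K1 at 24.98 ± 0.964 FPKM, a ratio of 6.55 ± 0.398 (SD over 3 libraries), though such similar genes may share reads. Of the immunoproteasome genes Psmb10 was at 16.2 FPKM, Psmb9 at 1.13 FPKM and Psmb8 at 1.06, 1.15 and 2.22 FPKM, highest in replicate 3. For class II and co-stimulation 4 of 12 were expressed, 33.3% against 65.3% of all genes. These were the co-stimulation genes Cd276 at 26.5 FPKM, Tnfsf9 at 7.23 FPKM and Cd274 at 1.99 FPKM, and H2-DMb1, a class II peptide loading gene, at 6.40 FPKM. Cd74, Ciita and H2-Eb1 were at 0.02, 0.0133 and 0.0967 FPKM.

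Interferon-stimulated genes were expressed in 39 of 42 cases, 92.9% against 65.3% of all genes, with a median of 13.7 FPKM. The type I interferon gene Ifnb1 was at 0, 0.13 and 0 FPKM. Ifitm3, a membrane protein that restricts virus entry, was at 879, 1019.8 and 965 FPKM, and Ifitm2, a close copy, at 418 FPKM. Bst2, which tethers budding virus, was at 414 ± 28.7 FPKM, Ifi27 at 143 ± 3.30 FPKM and Oasl1 at 73.3 ± 3.51 FPKM (SD, n = 3). Oas2 at 0.277 FPKM, Zbp1 at 0.367 FPKM and Ddx60 at 0.91 FPKM were those under the threshold, and Mx1 and Mx2 were not analysed here.

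The highest gene of the lipid lists belonged to sphingolipid metabolism. Among 28 sphingolipid genes with values, 22 were expressed, 78.6% against 65.3% of all genes, with a median of 15.2 FPKM. Degs1, the desaturase that completes ceramide synthesis, was at 520.5, 540.0 and 533 FPKM. Cers2, which makes very long-chain ceramides, was at 151 ± 3.22 FPKM and Cers5 at 96.3 ± 0.484 FPKM (SD, n = 3), and Cers2 held 59.4% ± 0.377 of the summed FPKM of 5 ceramide synthases. Cers6 was listed at 0. S1pr1 held 98.3% ± 0.106 of the summed FPKM of 3 sphingosine-1-phosphate receptors (SD, n = 3), and Spns2, the exporter of their ligand, was at 39.3 FPKM.

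Cholesterol synthesis was nearly complete, with 21 of 22 expressed, 95.5% against 65.3% of all genes, and a median of 9.30 FPKM. The highest were Lbr, a sterol reductase and lamin B receptor, at 55.1 FPKM, Acat2, a thiolase gene, at 32.3 FPKM, Ebp, a sterol isomerase gene, at 27.5 FPKM, Fdps, farnesyl diphosphate synthase, at 27.2 ± 3.34 FPKM and Sqle, squalene epoxidase, at 18.1 FPKM. Tm7sf2, at 0.78, 0.55 and 1.15 FPKM, had its mean of 0.827 under the threshold. It encodes a sterol C14 reductase, an activity that Lbr also has.

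Of 15 genes of sterol regulation 11 were expressed, 73.3% against 65.3% of all genes. Soat1, which esterifies cholesterol, was highest at 30.4 FPKM. Srebf2 and Srebf1, the sterol-responsive transcription factor genes, were at 13.5 and 13.1 FPKM. Nr1h2, a liver X receptor gene, was at 20.8 FPKM, and its relative Nr1h3 at 0.397 FPKM. Of 26 genes of lipoprotein uptake and sterol efflux 17 were expressed, 65.4%, a share near the 65.3% of all genes. Npc2 was highest at 55.6 FPKM. Abcg1 was at 5.16 FPKM and Apoe at 2.85 FPKM, while Abca1, the main cholesterol exporter to apolipoprotein A-I, was at 0.37, 0.30 and 0.33 FPKM.

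Fatty acid synthesis genes were expressed in 13 of 19 cases, 68.4% against 65.3% of all genes, with a median of 12.5 FPKM. Elovl1, an elongase of saturated very long chains, was highest at 84.3 ± 4.79 FPKM, and Scd2, a desaturase, was at 72.3, 72.1 and 72.1 FPKM. Scd2 held 87.4% ± 0.559 of the summed FPKM of 4 stearoyl-CoA desaturases and its ratio to Scd1 was 7.07 ± 0.387 (SD, n = 3). Acly and Fasn were at 54.5 and 54.3 FPKM, and Acacb, which serves the control of oxidation, at 0.567 FPKM.

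Uptake and activation of fatty acids had the lowest share expressed of the lipid lists. Of 19 genes 9 were expressed, 47.4% against 65.3% of all genes, with a median of 0.850 FPKM. Acsl5, an acyl-CoA synthetase gene, was at 124, 128 and 124 FPKM and Slc27a1, a fatty acid transport protein gene, at 29.0 FPKM. Cd36, the fatty acid translocase of heart and muscle capillaries, was at 0.0233 FPKM, Lpl, lipoprotein lipase, at 0.02 FPKM and Gpihbp1, which carries that enzyme to the capillary surface, at 3.27, 4.94 and 4.20 FPKM. Oxidation genes were expressed in 19 of 24 cases, 79.2%, with a median of 21.4 FPKM. Etfb, Hadha and Etfa of mitochondrial oxidation were at 81.1, 80.7 and 80.2 FPKM, and Cpt1a, which admits acyl groups to mitochondria, at 20.5 FPKM. The receptor genes Pparg and Ppara were at 0.377 FPKM and listed at 0.

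Lipid droplet genes were expressed in 22 of 28 cases, 78.6% against 65.3% of all genes, with a median of 8.16 FPKM. Agpat1 and Gpat4, acyltransferases of glycerolipid synthesis, were at 40.4 and 40.3 FPKM. Plin2 was at 26.5 FPKM and Plin3 at 19.6 FPKM, while the adipocyte perilipin gene Plin1 was listed at 0 together with Plin4, Plin5 and G0s2. Eicosanoid genes were expressed in 10 of 19 cases, 52.6% against 65.3% of all genes, with a median of 1.67 FPKM. The highest level in that list was 189.6 FPKM, and 2 members, not named here, were at or above 100 FPKM. Ptgs2, the inducible cyclooxygenase gene, was at 29.8, 28.1 and 28.1 FPKM and Ptgs1, the constitutive one, at 1.5, 1.78 and 1.72 FPKM, lower than Ptgs2 in every library. Ptgis, the prostacyclin synthase gene, was at 0.803 FPKM.

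**Figure D4:**
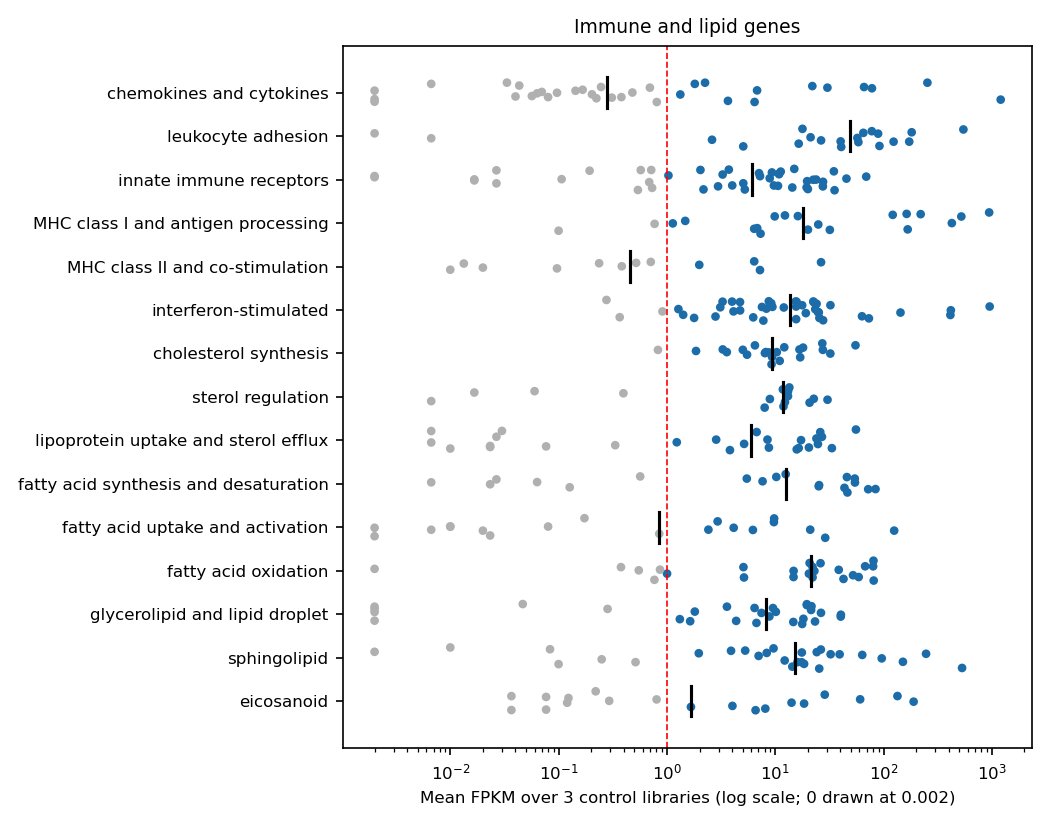
Mean FPKM over the 3 control libraries (log axis, 0 drawn at 0.002) of each gene in the immune and lipid lists. Blue points are expressed genes, grey points lie under the dashed line at 1 FPKM, and black bars are list medians, from 0.278 FPKM for chemokines and cytokines to 49.0 FPKM for leukocyte adhesion.

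The spread between the 3 libraries was small for most genes. The median coefficient of variation was 5.17% over all expressed genes, from 1.77% at the 10th to 12.4% at the 90th percentile. It was 11.8% for genes from 1 to 2 FPKM, 6.10% from 5 to 10 FPKM, 4.29% from 10 to 100 FPKM, 3.97% from 100 to 1000 FPKM and 5.62% at or above 1000 FPKM. Among the 6511 genes at or above 10 FPKM, 7 differed by over 1.5-fold between replicates 2 and 1, 3 between replicates 3 and 1, and 2 between replicates 3 and 2. Pearson's r of log2(FPKM + 1) over expressed genes was 0.996, 0.997 and 0.998 for these pairs. It is a description across genes, which are not independent replicates.

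The most variable genes at or above 10 FPKM were Cd99, at 27.5, 100.2 and 71.5 FPKM, and Ndufb4c, at 38.2, 93.9 and 68.0 FPKM. Both were lowest in replicate 1 and highest in replicate 2. Ndufb4c is a near copy of a complex I subunit gene, so its reads may be shared. The next were Smim27, Snrnp48, Rpain, Clk1, Trpm7, Zfp948, Cenpw and Nipbl, with coefficients of variation from 26.7% down to 19.4%. At the other end Cacybp was at 142.56, 142.52 and 142.54 FPKM, a coefficient of variation of 0.0140%, and Ikbip, Prkar2a, Scd2, Pdia6, Cinp, Pigs, Layn, Npdc1 and Ppp1r2 were at or under 0.206%. With 3 libraries some of 6511 genes have nearly equal values by their number alone.

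Replicates 1 and 2 lay at the ends of a pattern that followed transcript length and GC content. Replicate 1 was the lowest library for 43.5% of genes at or above 10 FPKM and the highest for 34.8%, replicate 2 the lowest for 37.5% and the highest for 40.0%, and replicate 3 the lowest for 19.0% and the highest for 25.2%. By quintile of transcript length, the median log2 ratio of replicate 2 to replicate 1 went from 0.11 in the shortest to -0.083 in the longest (Spearman's rho over genes -0.465). By quintile of GC content, it went from -0.12 in the lowest to 0.076 in the highest (Spearman's rho 0.524), with 0.082 in the fourth. Replicate 3 lay between the others in both. By quintile of mean FPKM, the median log2 ratio of replicate 2 to replicate 1 went from -0.036 in the lowest to 0.078 in the highest (Spearman's rho 0.268). The points share their libraries, and length and GC content vary together across genes. Level varies with length too, with a median length of 1841 bases at or above 100 FPKM and 3301 bases from 1 to under 100 FPKM. Of the 100 most variable genes with a length, 68 were highest in replicate 1 and lowest in replicate 2, and 9 the reverse. Their median GC content was 42.2%, against 49.9% for all genes at or above 10 FPKM. The part of RNA quality or library preparation in this was not tested.

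**Figure D5:**
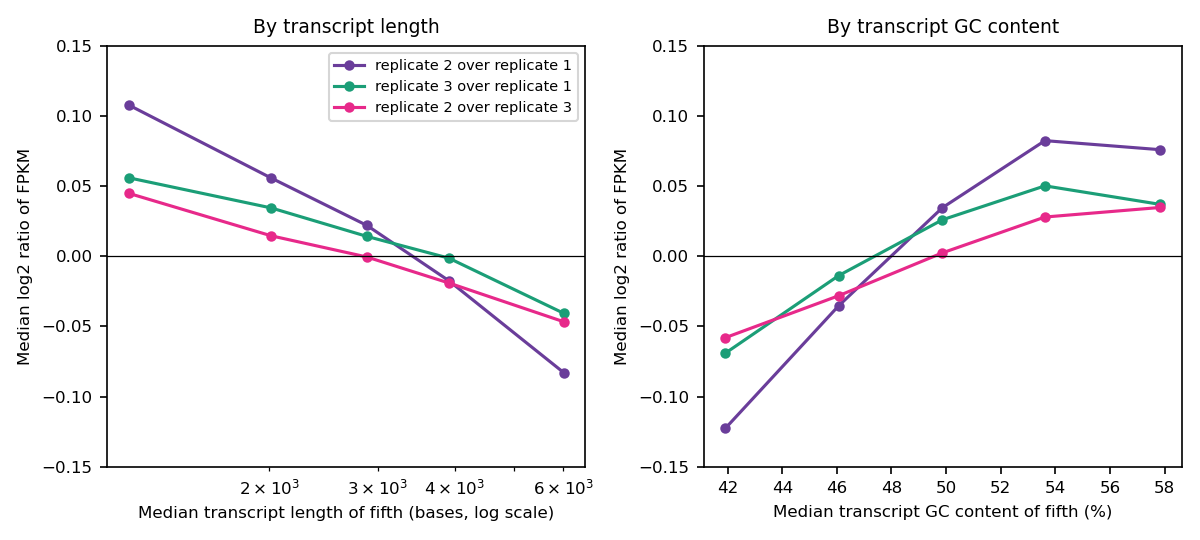
Median log2 ratio of FPKM between pairs of control libraries in quintiles of transcript length (left, log axis in bases) and of transcript GC content (right, percent), over 6464 genes at or above 10 FPKM. The ratio of replicate 2 to replicate 1 falls from 0.11 to -0.083 with length and goes from -0.12 to 0.076 with GC content, and pairs with replicate 3 follow smaller slopes.

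Promoter windows of expressed genes differed in composition from those of genes near 0. RefSeq held a window for 8433 of the 10392 expressed genes, and a gene may have several starts. All windows belong to 27025 genes, of which only 12497 are in the deposited table. Shares over all windows are therefore not an average of the classes by level. The GC box was present in 66.6% of windows of genes at or above 100 FPKM, 64.1% from 1 to under 100 FPKM, 41.9% from 0.1 to under 1 FPKM and 36.1% under 0.1 FPKM, against 35.7% of all windows. The ETS core was present in 34.3%, 29.0%, 12.6% and 8.49% of these classes and 14.9% of all windows. The CCAAT box varied little, from 36.1% to 40.1%, and the TATA box was in 9.23% of windows at or above 100 FPKM, 6.41% from 1 to under 100 FPKM and 13.2% under 0.1 FPKM. The median ratio of observed to expected CpG was 0.824 at or above 100 FPKM and 0.353 under 0.1 FPKM. A start at C followed by at least 4 pyrimidines, within 5 bases of the annotated start, was found in 43.4% of 76 windows of ribosomal protein genes and 18.3% of all windows. The median GC content of the windows was 60.7% at or above 100 FPKM, 61% from 1 to under 100 FPKM, 55.3% from 0.1 to under 1 FPKM and 54.3% under 0.1 FPKM, and its part in the motif shares was not tested.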

How the data were processed

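Polyadenylated RNA of 6 bEnd.3 samples was sequenced, per the labels' protocols, after enrichment on oligo(dT) beads, and the 3 control samples were analysed. The authors deposited 1 table of 15917 genes with FPKM values rounded to 2 decimals. Columns with the authors' log2 ratio, p-value and q-value for knockdown against control were left out of the analysis. Aligner, counting program, strand setting, genome build and annotation were not given in the sources used here. Every gene of the table is of type mRNA and 0 are mitochondrially encoded. Without counts the depth of a library, and so the counting error of a value, is unknown.

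For each gene the mean, SD and coefficient of variation over the 3 control columns were computed with Python 3.11.15, numpy 2.4.6, pandas 2.3.3 and scipy 1.17.1, and plotted with matplotlib 3.10.9. A gene was called expressed at a mean of at least 1 FPKM. The 51 lists hold 1027 genes, of which 896 are in the table. The lists and members were chosen with earlier results of these data known, and the core families, the gene families used for shares and the analysis by length and GC content were chosen after values had been seen. The rule for naming covered the 20 most abundant genes, with and without translation and predicted genes, up to 5 highest members of each list and those under 1 FPKM, other list members where a sentence is about their family, the 10 genes of highest and of lowest coefficient of variation at or above 10 FPKM, and 3 genes on each side of the threshold. Predicted, clone-named and pseudogenes (318 of the expressed genes) were counted but not named in their own right. Some genes that the rule covers are not reported here.

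For length and GC content the longest coding transcript of a gene in GENCODE M21 was taken, matched by NCBI gene number, for 99.3% of genes at or above 10 FPKM. Promoter windows came from RefSeq (GRCm38.p6), matched by gene number for 12497 genes, 78.5% of the table. The spread measures were checked on simulated data of known spread. The motif search was tried only on simulated windows with planted CCAAT and TATA boxes, whose other bases could form no match. That trial does not cover the GC box, the ETS core, the pyrimidine start or the CpG ratio. Reads of near-identical copies (Ly6, H2, Ifitm, Abcb1 and similar families) and of overlapping genes cannot be told apart with the information at hand. Alternatives were other thresholds, scaling to TPM, the median or geometric mean, leaving out ribosomal protein genes and each replicate left out in turn.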

Additional observations from a re-analysis of the deposited data

How the results depend on the processing

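The number of expressed genes, the counts of each list, the spread, the shares of summed FPKM, the 20 most abundant genes and the promoter shares were recomputed. This gave 454 alternatives of 64 results. Of these, 13 moved the value by more than 1.5 times for a count or 1 SD for a share of FPKM. They concerned lists with few expressed members and the shares of the top genes. Promoter shares of genes at or above 100 FPKM were judged by a Wilson confidence interval over windows and stayed within it. Their alternatives have many windows in common with the main set, so this says little about stability. With a threshold of 0.5 FPKM the expressed members became 4 for the lymphatic, 1 for the pericyte, 1 for the fibroblast and 2 for the epithelial list. With a threshold of 2 FPKM they became 1 for smooth muscle, 0 for astrocytes and 0 for epithelium. Scaled to TPM, which multiplied the values of the libraries by 1.40 to 1.48, they became 4 for the lymphatic, 1 for the fibroblast and 2 for the epithelial list. Without ribosomal protein genes the top 10, 100 and 1000 genes held 8.79%, 26.5% and 62.4% of the sum, since a large class had been taken out of it. The median, or the mean without 1 replicate, of 3 values cannot lie 1 SD from their mean, so for shares and single levels these alternatives say nothing about stability. Leaving out mitochondrially encoded genes gave no value of its own because the table holds none, and a share of ribosomal genes without ribosomal genes is not defined. No paired analysis was possible because the groups carry different replicate numbers and no comparison between groups was made. Depth is unknown, so the lowest values cannot be told from 0 by their counting error, and 3 libraries set how well an SD is known.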

Other observations

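All 26 genes of the proliferation list were expressed, against 65.3% of all genes, with a median of 96.1 FPKM. Ccnd1, the cyclin of entry into the cell cycle, was at 904, 962 and 908 FPKM and held 94.7% ± 0.0957 of the summed FPKM of the 3 D-type cyclins (SD, n = 3). Pcna, the sliding clamp of DNA replication, was at 493 ± 15.7 FPKM, the ribonucleotide reductase genes Rrm2 and Rrm1 at 255.5 and 240.3 FPKM and the helicase gene Mcm7 at 233 FPKM. Mki67 was at 51.4, 39.4 and 43.7 FPKM. Of 13 genes of growth arrest and tumour suppression 11 were expressed, 84.6% against 65.3% of all genes. Trp53 was at 173 ± 8.87 FPKM and its target Cdkn1a at 119.5 ± 9.09 FPKM (SD, n = 3). Cdkn2a, at 0.44, 0.38 and 1.10 FPKM, was above 1 FPKM in replicate 3 alone, and Mycn was at 0.80 FPKM. The 16 reference genes were all expressed, from 17.5 FPKM for Tbp to 8334 FPKM for Eef1a1.

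Immediate early genes were expressed in 19 of 23 cases, 82.6% against 65.3% of all genes, with a median of 18.5 FPKM. Ccn1, a matricellular target of serum and stretch signals, was at 565, 571 and 582 FPKM, and Fosl1, an AP-1 subunit gene, at 93.4 ± 0.494 FPKM (SD, n = 3). Its relative Fos was at 0.62, 0.64 and 0.25 FPKM and Fosb at 0.373 FPKM, both under the threshold in every library. Of 16 flow sensing genes 13 were expressed, 81.25% against 65.3% of all genes. Ccm2 was at 57.8 FPKM and the stretch-gated channel gene Piezo1 at 26.4 FPKM, while Trpv4 and Piezo2 were at 0.197 and 0.00667 FPKM. In the list of VEGF, angiopoietin and growth factor genes 20 of 25 were expressed, 80% against 65.3% of all genes. Angptl4 was at 66.6 FPKM and Angpt2 at 61.6 FPKM, while Angpt1, the stabilising ligand of Tek, was at 0.00333 FPKM and Egfr was listed at 0. Tm4sf1, a tetraspanin-like gene of growing endothelium, was at 1065, 1125 and 1124 FPKM, and Ctla2a, a cathepsin inhibitor gene with close copies, at 1299 ± 45.9 FPKM (SD, n = 3). These latter genes are in no list and were chosen after their values were seen.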
